A study of Mus musculus with 9 samples.

Results

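The genes described here encode mitochondrial ribosomal proteins, and they were taken as every probe set whose single gene symbol starts with Mrpl or Mrps followed by a digit. One probe set stood for each gene, the one with the highest mean log2 value over the 9 arrays after scaling. This gave 74 genes of the 12393 that could be tested. Total RNA came from 6 mouse alveolar rhabdomyosarcomas, a soft-tissue cancer with features of skeletal muscle, and from 3 wild-type skeletal muscles, with 1 Affymetrix array for each sample. The muscles are labelled wild-type, while the genotype and strain of the tumour-bearing mice, any treatment, the ages, the muscles sampled and whether the samples came from separate animals are not given in the labels used here. P-values therefore measure only the spread between these arrays, which may be technical. Values are MAS5 signals, a linear brightness in arbitrary units, and differences are tumour minus muscle on the scale of log2(signal + 16). A gene was called at a Benjamini-Hochberg adjusted p under 0.05 from limma over all genes.

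Mitochondria translate the few proteins encoded by their own DNA, all of them parts of the respiratory chain, on ribosomes of their own. The ribosomal RNAs come from mitochondrial DNA, but every protein of these ribosomes is encoded in the nucleus, made in the cytosol and imported. The large subunit joins amino acids and holds the exit tunnel, and the small subunit reads the messenger RNA. Some of the proteins have counterparts in bacterial ribosomes, and others arose with mitochondria. Muscle fibres are rich in mitochondria.

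The arrays were checked against markers of cell types. Of 12 muscle fibre markers 11 were lower in the tumours, and their summed signal was 235725 to 330100 in the muscles and 2754 to 153806 in the tumours, highest in tumour 1. Of 10 macrophage markers 8 were higher, with sums of 10223 to 41801 in tumours and 3354 to 4723 in muscles, and 12 of 13 genes of cell division were higher. Of 7 myogenic markers 2 were higher and 1 lower. Of 5 T cell markers 0 were called, with sums of 212 to 876 in tumours and 291 to 444 in muscles. Endothelial and fibroblast lists each had 1 of 7 lower, the adipocyte list had 3 of 4 lower and the blood list 0 of 2 called. The part of these cell types in the results below was not tested, and in whole tissue fewer cells of a type and less RNA per cell cannot be told apart. Muscle 1 and muscle 3 were deposited on a lower scale than the other 7 arrays and were multiplied by 1.6995 and 3.5493. RNA integrity was read from Gapdh, where signal at the 3' end over that at the 5' end came to 1.68, 57.2 and 33.0 for muscles 1, 2 and 3, against 1.93 to 9.39 for tumours. The same ratio for Actb was 1.87, 4.06 and 4.35 for the muscles and 3.35 to 6.78 for tumours, so the 2 control genes did not order the groups alike.

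Most mitochondrial ribosomal protein genes did not pass the test between tumour and muscle, and those that did were lower in the tumours. Of the 74 genes 5 were lower, 0 were higher and 69 were not called, while 9.09% of all genes were called lower and 8.66% higher. The 5 were Mrps28, Mrpl42, Mrpl51, Mrpl37 and Mrpl16, at 2.38-fold to 4.73-fold lower. At an unadjusted p under 0.05, limma placed 13 of the 74 lower (17.6%, against 13.8% of all genes) and 1 higher (1.35%, against 15.4%). The median difference of the 74 genes was -0.20, against 0.10 over all genes. Of the 74, 47 lay below 0 and 27 above, and 66 differed by less than 2-fold either way (89.2%, against 70.9% of all genes). Tumour and muscle signals did not overlap for 12 of the 74 genes with the tumours lower, and for 0 with the tumours higher. Over all genes these shares were 11% and 10.7%.

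These counts rest on the scaling of muscles 1 and 3. With the values as deposited 0 of the 74 genes were called lower and 3 higher, namely Mrpl22, Mrpl44 and Mrps33, and the median of the 74 was 0.62 against 0.79 over all genes. The same step moved the share of called genes that were higher from 48.8% to 86.5%. Leaving out 1 array gave 3 to 7 lower and 0 higher, with 3 without muscle 2 and 3 without muscle 3. The count was 12 without tumours 1 and 4. Over all genes 1127 were lower with all arrays, 607 to 1348 with 1 array left out and 1417 without tumours 1 and 4. A gene that was not called is not shown to be alike in both groups. The 95% interval of the difference had a median half-width of 0.85, and it lay wholly within 2-fold either way for 13 of the 74 genes.

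**Figure D1:**
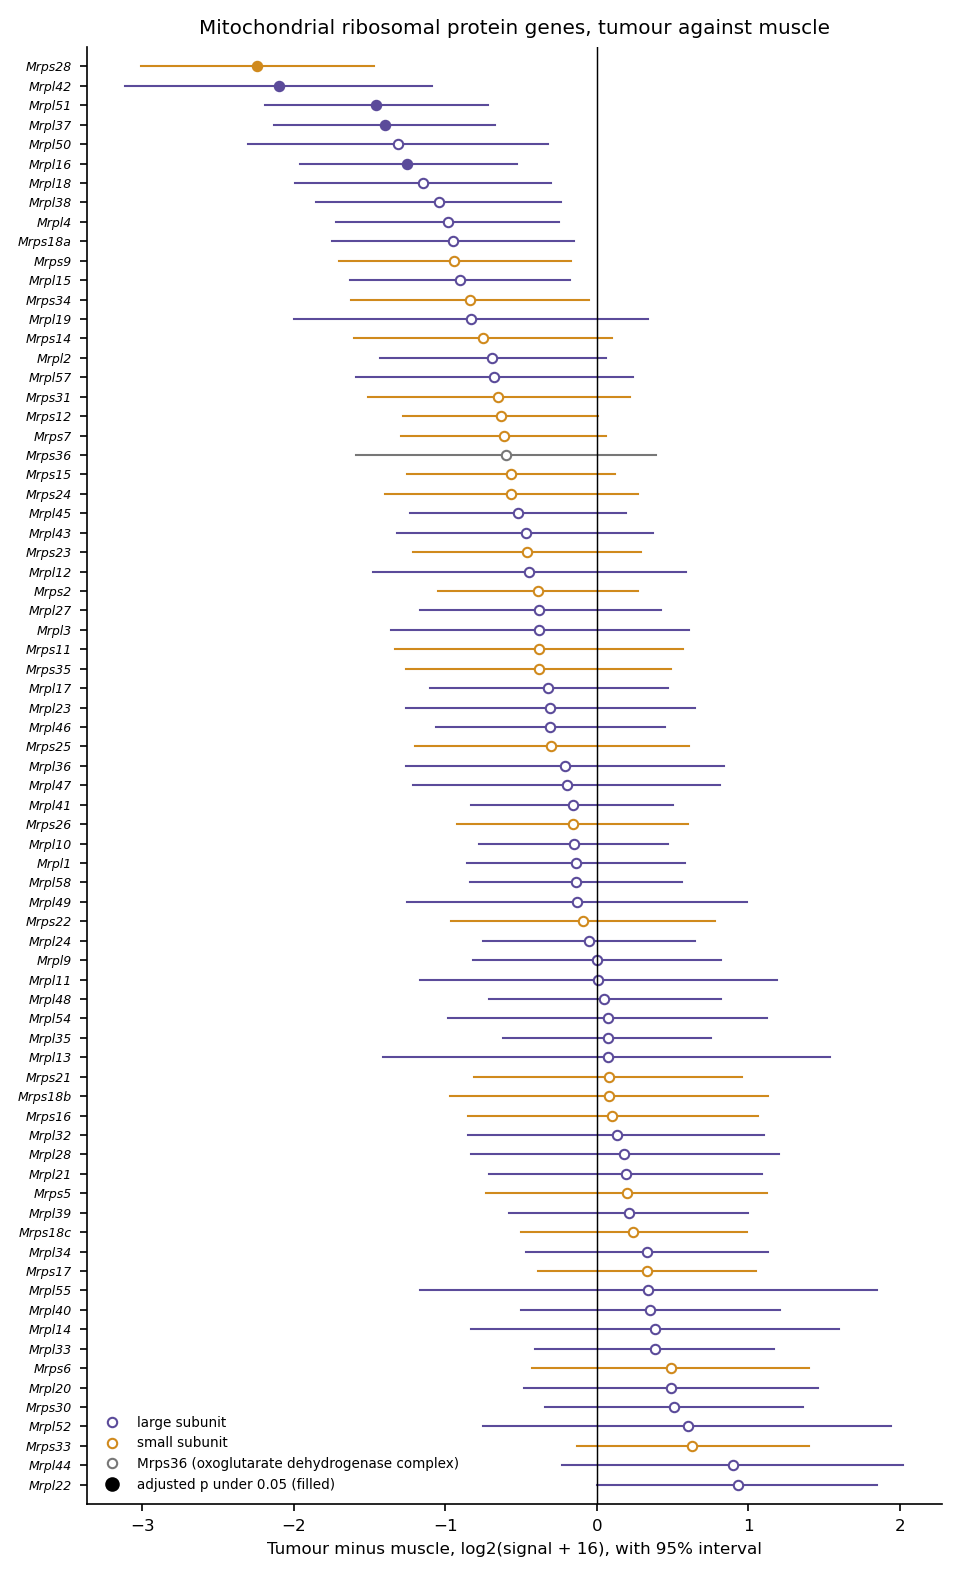
Each row is 1 of the 74 genes, with its difference between tumour and muscle in log2(signal + 16) as a point and its 95% interval from limma as a line; colour gives the subunit, and a filled point marks an adjusted p under 0.05. The 5 filled points lie between -2.24 and -1.25, and most other intervals cross 0.

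The deepest difference was that of Mrps28, which encodes a protein of the small subunit related to bacterial S1. Its signal was 194, 448, 289, 460, 482 and 386 in tumours 1 to 6 and 2021, 1403 and 1932 in muscles 1 to 3. Every tumour lay below every muscle, and the highest tumour reached 34.4% of the lowest muscle. The tumour mean was 376 ± 114 (SD, n = 6), and the muscle mean was 1785 ± 334 (SD, n = 3). The difference was -2.24 ± 0.36 (log2 ± SE), with a limma adjusted p of 0.00074. It was not called with the values as deposited, at -1.39 and an adjusted p of 0.056, in a range of 0.0001 to 0.18 over all alternatives.

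The other 4 lower genes belong to the large subunit, and 3 of them have no counterpart in bacteria. Mrpl42 had a signal of 412, 1834, 2082, 621, 1059 and 958 in tumours 1 to 6 and 5906, 3585 and 3906 in muscles 1 to 3. Tumours 1 and 4 were the lowest and tumours 2 and 3 the highest, and the groups did not overlap. The difference was -2.10 ± 0.47 (log2 ± SE; limma adjusted p = 0.0068). A second, dim probe set of the gene gave -0.61 ± 0.59. The call was lost when the median of the limma adjusted p of both probe sets was taken (0.29). Mrpl51 had a signal of 1974, 1665, 1814, 2457, 3468 and 3180 in the tumours and 7366, 6001 and 6030 in the muscles. Again no tumour reached a muscle, the highest being 57.8% of the lowest muscle. The difference was -1.46 ± 0.34 (log2 ± SE, limma adjusted p = 0.0092). Its other probe sets gave -0.70 ± 0.43, not called, and -1.52 ± 0.47, called. The last was dim, at 1.38 to 54.1 in tumours and 45.6 to 117 in muscles, and its groups overlapped.

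Mrpl37 had a signal of 282, 224, 297, 225, 247 and 381 in tumours 1 to 6 and 561, 823 and 883 in muscles 1 to 3. The tumours were close together and all below muscle 1, the lowest muscle. The difference was -1.40 ± 0.34 (log2 ± SE; limma adjusted p = 0.012). Its probe set carries the suffix that marks probes shared by more than 1 transcript, so its value is less certain. Mrpl16, the counterpart of a bacterial protein near the site where tRNAs are bound, had a signal of 1192, 950, 1297, 562, 707 and 900 in the tumours. In the muscles it was 2141, 1865 and 2516, so the groups did not overlap, with tumour 4 lowest. The difference was -1.25 ± 0.33 (log2 ± SE; limma adjusted p = 0.019). The calls of Mrpl37 and Mrpl16 were lost without muscle 2, at adjusted p of 0.076 and 0.055, and without muscle 3, at 0.091 and 0.11; that of Mrpl16 was also lost without muscle 1 (0.065). With the values as deposited Mrpl42, Mrpl51, Mrpl37 and Mrpl16 differed by -1.25, -0.60, -0.57 and -0.39 and were not called. Muscle 2 was deposited on the scale of the tumours. All 6 tumours lay below it for 17 of the 74 genes (23.0%, against 17.1% of all genes) and above it for 8 (10.8%, against 20.7%). The median difference from muscle 2 alone was -0.05 for the 74 genes and 0.16 for all genes. The 5 lower genes are among the 17 because every tumour lay below every muscle for them.

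**Figure D2:**
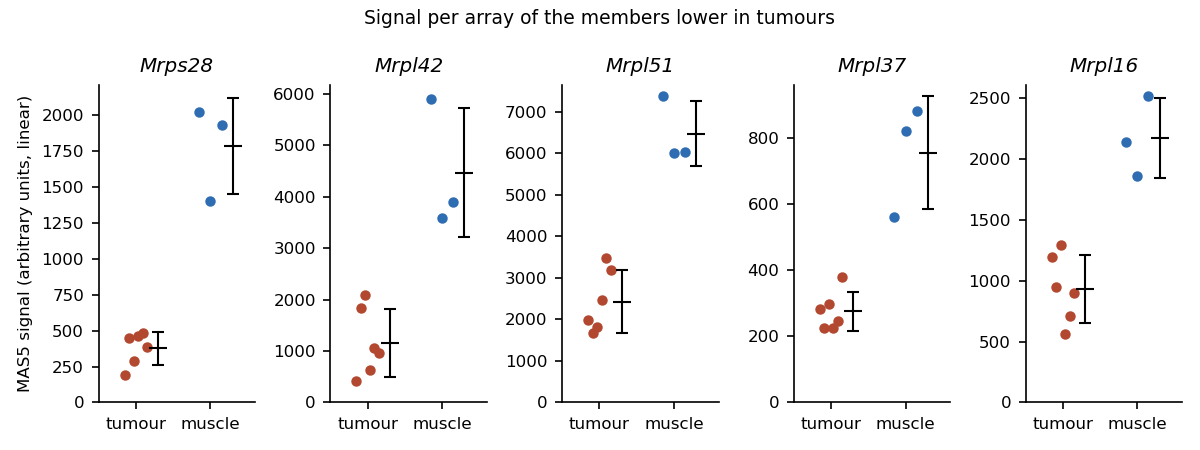
MAS5 signal on a linear axis from 0 for the 5 genes called lower, with 1 point per array (6 tumours, 3 muscles) and the mean ± SD in black. In each panel the highest tumour lies below the lowest muscle.

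The promoter sequences of the lower genes are shown to let a reader see what lies before them. Windows of the 250 bases before the start site were taken from RefSeq on GRCm38.p6, which held one for 65 of the 74 genes, and 4 motifs were searched on both strands. These were the NRF-1 site, bound by a factor of respiratory genes, CCGGAAG for GABP of the ETS family, AAGATGGC for YY1 and CACGTG for the E-box bound by MYC. Capitals mark matches, and each sequence reads 5' to 3' on the strand of its gene. They lie at chr10:95501950-95502199 on the minus strand for Mrpl42, chr6:125191950-125192199 on the plus strand for Mrpl51, chr4:107066867-107067116 on the minus strand for Mrpl37 and chr19:11770165-11770414 on the plus strand for Mrpl16. Mrpl12, at chr11:120484387-120484636 on the plus strand, stands beside them as a gene that was not called and holds an NRF-1 match.
Mrpl42: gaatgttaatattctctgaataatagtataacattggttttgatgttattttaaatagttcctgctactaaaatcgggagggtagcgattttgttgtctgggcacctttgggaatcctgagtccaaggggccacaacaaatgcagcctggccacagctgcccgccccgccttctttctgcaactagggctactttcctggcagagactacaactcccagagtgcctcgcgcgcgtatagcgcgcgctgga
Mrpl51: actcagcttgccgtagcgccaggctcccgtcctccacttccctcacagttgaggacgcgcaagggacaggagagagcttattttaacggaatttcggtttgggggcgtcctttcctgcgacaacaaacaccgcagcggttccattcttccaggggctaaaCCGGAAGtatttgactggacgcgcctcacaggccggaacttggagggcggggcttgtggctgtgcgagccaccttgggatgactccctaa
Mrpl37: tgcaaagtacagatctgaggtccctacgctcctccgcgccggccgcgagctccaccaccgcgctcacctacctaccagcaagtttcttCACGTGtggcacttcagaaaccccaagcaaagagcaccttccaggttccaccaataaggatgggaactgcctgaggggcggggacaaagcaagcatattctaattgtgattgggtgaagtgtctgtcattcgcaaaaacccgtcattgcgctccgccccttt
Mrpl16: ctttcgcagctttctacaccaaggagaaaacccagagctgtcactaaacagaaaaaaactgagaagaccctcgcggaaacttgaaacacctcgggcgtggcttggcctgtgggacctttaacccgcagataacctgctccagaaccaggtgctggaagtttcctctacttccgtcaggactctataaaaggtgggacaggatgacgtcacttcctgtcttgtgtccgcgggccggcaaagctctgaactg
Mrpl12: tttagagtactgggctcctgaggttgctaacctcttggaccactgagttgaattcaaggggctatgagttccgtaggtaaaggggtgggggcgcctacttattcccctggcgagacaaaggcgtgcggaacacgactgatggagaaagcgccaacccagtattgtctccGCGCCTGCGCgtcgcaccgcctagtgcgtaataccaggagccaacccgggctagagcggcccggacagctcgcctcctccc

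Of these, Mrpl51 held CCGGAAG from position -90 and Mrpl37 held CACGTG from position -162, counted back from the start site, while none of the 4 motifs was in the windows of Mrpl42 or Mrpl16. Mrpl12 held GCGCCTGCGC from position -81. Over the 65 genes 9 held the NRF-1 motif (13.8%), against 7.63% of the 9887 tested genes with a window. The GABP motif was in 16 (24.6%, against 12.9%), that of YY1 in 4 (6.15%, against 2.12%) and the E-box in 5 (7.69%, against 9.19%). Among the 4 lower genes with a window 0 held the NRF-1 motif, 1 the GABP motif, 0 that of YY1 and 1 the E-box. A match describes letters only.

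By role, the called genes were 4 of 49 in the large subunit and 1 of 24 in the small one. In the large subunit 1 of 29 proteins with bacterial counterparts was lower, Mrpl16, with a median difference of -0.14. Of 20 large-subunit proteins without one 3 were lower, with a median of -0.24. In the small subunit 1 of 15 with bacterial counterparts was lower, Mrps28, with a median of -0.39. All 9 small-subunit proteins without one, among them Mrps34 and Mrps33, were not called, and they ran from -0.84 to 0.63 with a median of -0.30. The groups place Mrps18a (large subunit) and Mrps18b (small subunit) among the proteins without a bacterial counterpart, although both are related to bacterial S18. No gene of these groups was called higher. For comparison, 9.09% of all genes were lower and their median difference was 0.10.

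The 3 genes of the stalk, which recruits translation factors, were not called. Mrpl12, the stalk protein related to bacterial L7/L12, had a signal of 1278, 676, 1079, 724, 854 and 205 in tumours 1 to 6 and 1286, 738 and 946 in muscles 1 to 3. Tumour 6 stood apart below all other arrays, and the rest overlapped. The difference was -0.45, with a 95% interval of -1.48 to 0.59. Its anchor on the ribosome, Mrpl10, was among the steadiest genes, with 690 to 1026 in tumours and 900 to 946 in muscles. The difference of Mrpl10 was -0.15, with an interval of -0.78 to 0.47. Mrpl11, the third gene of the stalk, was 2036 to 2288 in the muscles and ran from 1026 to 5220 in the tumours. Tumours 1, 3 and 5 lay above the muscles and tumours 2, 4 and 6 below them, and the difference was 0.01 ± 0.55 (log2 ± SE). These values are from the brightest probe set of Mrpl11. Its other probe sets gave -0.76 ± 0.61, 0.14 ± 0.60 and 0.74 ± 0.46, none of them called.

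Around the exit tunnel 0 of 7 genes were called and the median difference was -0.20. Mrpl45 encodes the protein that anchors the ribosome at the inner membrane. Its signal was 739, 660, 431, 555, 773 and 487 in tumours 1 to 6 and 661, 818 and 1179 in muscles 1 to 3. The groups overlapped at muscle 1, and the difference was -0.52 with a 95% interval of -1.23 to 0.19. Mrpl22, at the tunnel wall, had the highest positive difference of the 74 genes, 0.93 ± 0.43 (log2 ± SE; limma adjusted p = 0.17). It ran from 594 to 2653 in tumours and from 509 to 1091 in muscles, and tumour 6 lay within the muscles. In the central protuberance, a projection at the top of the large subunit, 0 of 9 genes were called, with a median of -0.14. Mrpl58, a peptidyl-tRNA hydrolase built into that part, differed by -0.14 ± 0.33.

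At the decoding centre, Mrps12 had a signal of 728, 669, 478, 792, 845 and 657 in tumours 1 to 6 and 1093, 998 and 1122 in muscles 1 to 3. All tumours lay below all muscles, yet the difference was small, at -0.63 with an interval of -1.28 to 0.01 and a limma adjusted p of 0.18. The only probe set of Mrps12 carries the suffix of shared probes, so its value is less certain. Mrpl3, close to the catalytic centre, ranged widely, at 808, 1241, 2549, 742, 2157 and 3003 in the tumours and 1812, 2475 and 1725 in the muscles. Tumours 1 and 4 were lowest and tumour 6 highest, with the muscles between them. The difference of Mrpl3 was -0.38, with an interval of -1.36 to 0.61, and its direction turned without tumours 1 and 4 (0.10). These values are from the brightest probe set of Mrpl3. A dimmer one had all tumours (202 to 575) below all muscles (602 to 828), at -0.86 ± 0.36 and not called. The third, dimmer still, gave 0.44 ± 0.43 and was not called.

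The 3 genes related to bacterial S18 differed in how they varied. Mrps18a, whose protein sits in the large subunit in spite of its name, had a signal of 683, 320, 424, 649, 290 and 323 in tumours 1 to 6 and 1064, 702 and 771 in muscles 1 to 3. Every tumour lay below every muscle, with tumour 1 just under muscle 2. The difference was -0.95 ± 0.37 (log2 ± SE; limma adjusted p = 0.10), and leaving out tumour 1 brought it past the threshold (0.036, where all alternatives ran from 0.010 to 0.89). Mrps18b had 510, 988, 1522, 370, 1525 and 2033 in the tumours and 1022, 911 and 853 in the muscles. The muscles were alike while tumours 1 and 4 lay below them and tumours 3, 5 and 6 above, giving a difference of 0.08 ± 0.49. Mrps18c had 761, 1460, 889, 1385, 878 and 693 in the tumours and 1149, 709 and 668 in the muscles, with overlap and a difference of 0.24 ± 0.35. Whether the 3 differences differ from each other was not tested.

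Mrps30, also placed in the large subunit, had a signal of 654, 290, 412, 774, 403 and 394 in tumours 1 to 6 and 462, 224 and 316 in muscles 1 to 3. The groups overlapped, and the difference was 0.51 with an interval of -0.34 to 1.36. Mrps36 carries the name of a ribosomal protein but encodes a part of the oxoglutarate dehydrogenase complex. Its signal was 940, 407, 339, 974, 275 and 372 in the tumours and 1219, 539 and 622 in the muscles. Tumours 1 and 4 lay among the muscles and the other 4 below them, with a difference of -0.60 ± 0.46. Without tumours 1 and 4 it was called lower, at -1.07 (limma adjusted p = 0.046).

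The tumours differed among themselves. The median SD of log2 values over the 6 tumours was 0.53 for the 74 genes and 0.70 for all genes, and over the 3 muscles it was 0.33 and 0.36. By the brightest probe set of each gene, Mrpl13, Mrpl52 and Mrpl55 spread most. Their ratios between the highest and lowest tumour were 14.5, 16.6 and 11.7 on the offset scale. Mrpl13 was 169 in tumour 1 and 2661 in tumour 4. Its dimmer probe sets ran only from 345 to 767 and from 342 to 1706 in the tumours. Mrpl52 was 8812 in tumour 1 against 515 to 1696 in the other tumours. Its dimmer probe sets ran from 315 to 1570, 430 to 2007 and 26.9 to 139, each highest in tumour 1. By the same measure Mrpl1, Mrpl10 and Mrpl41 spread least, with ratios of 1.38, 1.48 and 1.63. Dimmer probe sets were less steady in the tumours. Those of Mrpl1 ran from 27.6 to 228 and from 31.1 to 121, and those of Mrpl41 from 518 to 1563 and 13.1 to 49.9. Tumour 1 was the highest of the 6 for 27 of the 74 genes (36.5%, against 37.6% of all genes) and the lowest for 11 (14.9%, against 20.1%). Muscle 1 was the highest of the 3 muscles for 48 of the 74 genes (64.9%, against 41.3% of all genes). Muscle 1 was also the muscle with the lowest Gapdh 3' to 5' ratio, and the part of RNA quality in this was not tested.

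On each array the median of the 74 genes was taken relative to the muscle means. It was -0.02, -0.56, -0.07, -0.02, -0.25 and -0.58 in tumours 1 to 6 and 0.27, -0.20 and -0.05 in muscles 1 to 3, so that the groups overlapped. Tumours 2 and 6 were lowest. Against the median of all genes on the same array, the 74 genes lay at -0.64 to -0.21 in the 6 tumours and at -0.17 to 0.22 in the muscles.

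Other gene groups of energy and protein production stood elsewhere on the same arrays. Of 76 nuclear-encoded subunits of the respiratory chain 40 were lower and 1 higher (Cox6a1, at 1.62), with a median difference of -1.32. The median of the 76 on each array was -1.35 to -0.96 in tumours and -0.12 to 0.22 in muscles, without overlap. Leaving out 1 array gave 21 to 44 lower, with 22, 25 and 21 without muscles 1, 2 and 3, and the values as deposited gave 8 lower. Of 45 cytosolic ribosomal protein genes 13 were higher and 1 lower (Rpl3l, at -5.79), with a median of 1.08. Leaving out 1 array gave 5 to 18 higher, with 6 without muscle 2 and 5 without muscle 3, while quantile normalization gave 25 and the values as deposited 31. The mitochondrial ribosomal genes lay between both groups in each of the 6 tumours. These differences between groups of genes were not tested, and the 3 groups were measured on the same arrays.

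**Figure D3:**
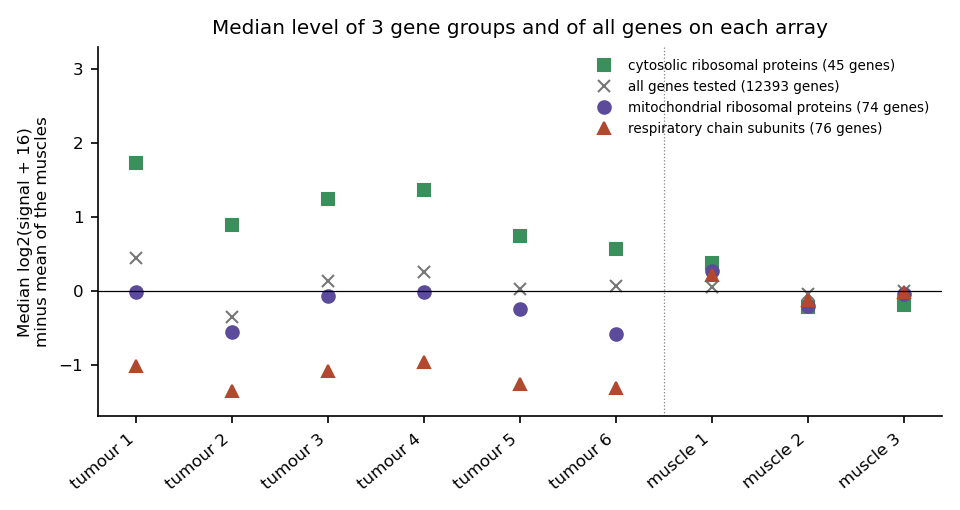
For each array, the median over a group's genes of log2(signal + 16) minus the mean of the 3 muscles, for 74 mitochondrial ribosomal protein genes, 76 respiratory chain subunits, 45 cytosolic ribosomal protein genes and all 12393 genes. The respiratory chain lies between -1.35 and -0.96 in the tumours, the mitochondrial ribosome between -0.58 and -0.02 and the cytosolic ribosome between 0.56 and 1.73.

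**Figure D4:**
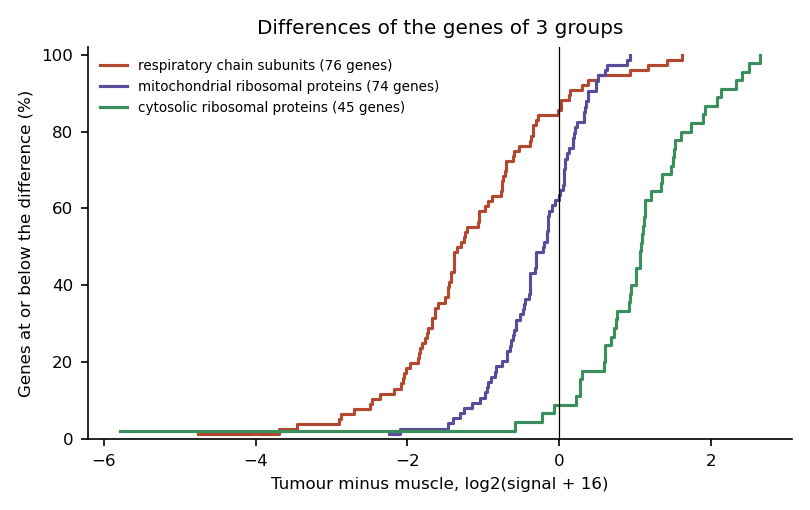
Cumulative share of genes, in percent, at or below each tumour minus muscle difference in log2(signal + 16), for the same 3 groups of genes. The curve of the mitochondrial ribosomal genes rises steeply around its median of -0.20, between those of the respiratory chain (-1.32) and the cytosolic ribosome (1.08).

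Genes that assemble, feed and drive mitochondrial translation were lower in the tumours or not called. Over 5 lists of such genes, 55 were measured, of which 12 were lower, 0 higher and 44 below 0, with a median difference of -0.71. Beside this stand 9.09% of all genes called lower. Of 4 further proteins of the mitochondrial ribosome under other symbols 0 were called. Dap3 differed by 0.25 ± 0.33, Ptcd3 by -0.77 ± 0.32, Chchd1 by -0.26 ± 0.40 and Gadd45gip1 by -1.21 ± 0.82. With the values as deposited 0 of the 55 were called lower.

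Of 18 genes that assemble the mitochondrial ribosome or modify its RNA 4 were lower and 0 higher, with a median of -0.69. Mtg2, a GTPase of large-subunit assembly, had tumour signals of 20.9 to 54.2 and muscle signals of 170 to 289, without overlap, a difference of -2.18 ± 0.40. Fastkd2, an RNA-binding protein of assembly, fell from 1126 ± 147 in muscles to 327 ± 205 in tumours, a difference of -1.89 ± 0.42. Eral1, a chaperone of the small-subunit RNA, differed by -1.30 ± 0.36 (limma adjusted p = 0.023). As the mean of its probe sets the difference of Eral1 was -0.45 and not called (adjusted p = 0.35), and the call was also lost without muscle 1 (0.097) and muscle 3 (0.14). The fourth, Mtg1, differed by -1.04 ± 0.33. Of the list 1 was lower when the median adjusted p over the probe sets of each gene was used. With 1 array left out 2 to 6 were lower.

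Of 10 translation factors 3 were lower and 0 higher, with a median of -0.96. Gfm1, an elongation factor, had 543 to 987 in tumours and 1907 to 2866 in muscles, without overlap, and differed by -1.67 ± 0.31 (limma adjusted p = 0.0021). Mtif2, an initiation factor, differed by -1.13 ± 0.31, and Pdf, which removes the formyl group from new chains, by -1.41 ± 0.46. Mtif2 was no longer called when muscle 1, 2 or 3 was left out (adjusted p of 0.054, 0.11 and 0.11). That of Pdf, whose groups overlapped because tumour 2 reached 1395, was lost in 15 of 23 alternatives, with adjusted p from 0.0032 to 0.46. Tufm, the elongation factor that brings tRNAs, differed by -0.92 ± 0.43 and was not called.

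Of 11 mitochondrial aminoacyl-tRNA synthetase and amidotransferase genes 2 were lower, Qrsl1 at -1.78 ± 0.49 and Fars2 at -1.30 ± 0.37. Neither was called without muscle 2 (adjusted p of 0.12 and 0.11) or without muscle 3 (0.072 and 0.15), nor was Qrsl1 with median centring (0.052). Of 12 genes that replicate or transcribe mitochondrial DNA or process its RNA 3 were lower. Tfb2m, a transcription factor of mitochondrial DNA, had 333 to 609 in tumours and 1849 to 2122 in muscles, without overlap, and differed by -2.02 ± 0.31 (limma adjusted p = 0.00049). Tefm, the elongation factor of mitochondrial transcription, differed by -1.54 ± 0.35, and its call was lost without muscle 2 (adjusted p = 0.062). Tfam, which packages mitochondrial DNA, had 145 to 542 in tumours and 961 to 1031 in muscles, and differed by -1.34 ± 0.42. Tfam was no longer called when muscle 1, 2 or 3 was left out (adjusted p of 0.12, 0.12 and 0.14), without tumour 4 (0.068) and in 11 of 23 alternatives in all. The probe sets of Mtg2, Gfm1 and Qrsl1 carry the suffix of shared probes, so their values are less certain.

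Of 9 regulators of mitochondrial genes 2 were lower and 1 higher. Ppargc1a, the coactivator PGC-1 alpha, had 229, 63.5, 87.7, 249, 134 and 130 in tumours 1 to 6 and 466, 588 and 499 in muscles 1 to 3. No tumour reached a muscle, and the difference was -1.82 ± 0.45 (limma adjusted p = 0.013), which was lost without muscle 2 (0.075) or muscle 3 (0.062). Its partner Esrra, an orphan nuclear receptor, differed by -2.05 ± 0.41. The MYC gene, Myc, was higher, at 292 to 724 in tumours and 47.0 to 133 in muscles, a difference of 2.01 ± 0.43 (limma adjusted p = 0.0050). Nrf1, Gabpa and Yy1, also factors named with the motifs above, differed by 0.49 ± 0.33, -0.51 ± 0.48 and 0.17 ± 0.44 and were not called. For Nrf1 every tumour (321 to 425) lay above every muscle (224 to 286).

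Several of the 74 genes had more than 1 probe set, and these did not always agree. The 74 genes had 127 probe sets, and in 15 of the 33 genes with several all pointed one way. Of the 127, 10 were called lower and 1 higher, while 7.89% of all 20380 probe sets were lower and 7.80% higher. In 0 genes were probe sets called in opposite directions. Mrpl38 had its brightest probe set at -1.04 ± 0.37 and a dimmer one at 1.41 ± 0.53, neither of them called. Mrpl44, a protein with a ribonuclease III fold, was also split, and it is named here because of its values. Its brightest probe set, which stood for the gene, differed by 0.90 ± 0.52. A dimmer one had 105 to 187 in tumours and 295 to 458 in muscles and differed by -1.32 ± 0.38 (limma adjusted p = 0.031), and the third by -0.89 ± 0.45. Mrpl15 had 7 probe sets, of which 2 were called lower, at -1.71 ± 0.39 and -1.32 ± 0.32. Dimmer ones at 0.70 ± 0.41 and 0.06 ± 0.42 lay above 0 and were not called. The brightest gave -0.90 ± 0.34 and was not called, although its tumours (865 to 2039) lay below its muscles (2151 to 2704). Mrpl52 had 4 probe sets, all above 0, of which 1 was called higher, at 1.38 ± 0.44 (limma adjusted p = 0.049). For Mrps15 1 of 2 probe sets was called lower, at -1.11 ± 0.34, and the brightest gave -0.57 ± 0.32. When the probe sets of each gene were averaged, 7 of the 74 genes were lower and 0 higher, the added ones being Mrpl4 and Mrps15.

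**Figure D5:**
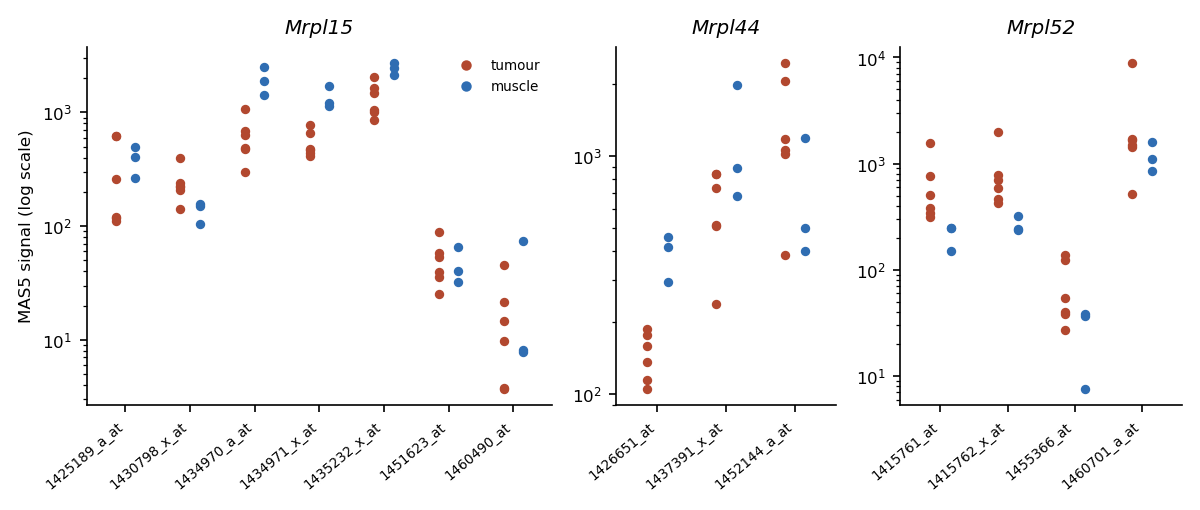
MAS5 signal on a log axis for every probe set of Mrpl15, Mrpl44 and Mrpl52, with tumours to the left in red and muscles to the right in blue, 1 point per array. For Mrpl44 the tumours lie below the muscles for the dimmest probe set (105 to 187 against 295 to 458), while the brightest probe set points the other way.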

How the data were processed

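The deposited values are MAS5 intensities from 9 one-colour Affymetrix arrays, linear signals that the authors made with MAS5, per the submitters' processing notes; no version or scaling target is given in the sources used here. The 2% trimmed mean was 500.2 on 7 arrays, 294.3 on muscle 1 and 140.9 on muscle 3, so signals were rescaled by 1 factor per array to bring these means to their median. Of 22690 probe sets, 20380 had a single gene symbol in the platform annotation, 691 several and 1555 none, with 64 control sets left out of the tests; the brightest probe set stood for each of 12393 genes. Log2(signal + 16) was fitted with limma 3.58.1 in R 4.3.3 (lmFit, eBayes with trend) over all 9 arrays, without a filter, and p-values were adjusted by Benjamini-Hochberg over all genes. No 2 arrays held the same values (0 duplicate columns). Summaries used Python 3.11.15, numpy 2.4.6 and pandas 2.3.3. The fit was also run on simulated data with independent noise for each gene. The simulation held no scale or RNA-quality differences between arrays, so it cannot address the scaling of muscles 1 and 3.

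The genes and lists were chosen with earlier results of these data known. Named were up to 8 called genes per direction whose groups did not overlap, 9 fixed genes (Mrpl12, Mrps12, Mrpl3, Mrpl45, Mrps18a to Mrps18c, Mrps30 and Mrps36), up to 3 called genes per direction of each pathway list and fixed regulators; other names were chosen after their values were seen. Alternatives covered scaling, offset, a brightness filter, probe-set choice, the spread model, a replicate block and leaving out arrays. The number of arrays limits the precision.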

Additional observations from a re-analysis of the deposited data

Results flagged for a closer look

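Mrpl12, the stalk protein of the large subunit, had 1 tumour apart from the others. Its signal was 205 in tumour 6 and 676 to 1278 in the other 5 tumours, and the gap made up 0.646 of the range of log2 values of the 6 tumours, above Dixon's critical value for that number of samples. It was 1 of 14 genes tested in this way, and chance flags about 1 in 20 groups.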

How the results depend on the processing

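The 5 lower genes were all called in 15 of 23 alternatives. The count of lower genes was 9 among genes of at least median brightness, 12 with a weight per group and 12 without tumours 1 and 4. It was 3 to 7 when 1 array was left out. Over all genes 970 were lower with the brightness filter, 1489 with the weight and 1417 without tumours 1 and 4. Without rescaling 0 were lower and 3 higher, the median of the 74 genes was 0.62, and over all genes 2373 were higher and 369 lower. With muscle 2 as the only muscle, an alternative chosen after seeing the data in which the lone sample is assumed to vary like the tumours, 0 of the 74 were lower and 217 of all genes were called (88 higher, 129 lower). Over all genes, leaving out 1 array gave 1110 to 2769 called, 503 to 1421 higher and 607 to 1348 lower.

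Whether replicate numbers pair the samples was not settled, and the main fit did not pair them. Over genes, deviations from the group means correlated at 0.232, 0.207 and -0.0185 for same-numbered tumours and muscles. For different-numbered ones they correlated at -0.246 to 0.0787. With the replicate block over tumours 1 to 3 and the muscles, 3 of the 74 genes were lower, and over all genes 641 were higher and 826 lower; the same 6 arrays without the block gave 2 of the 74, and over all genes 454 higher and 635 lower (1089 called). Among genes not called, the direction of Mrps18b turned with median centring (-0.02), the block (-0.01), the same 6 arrays (-0.01) and without tumour 3 (-0.04), tumour 5 (-0.04) or tumour 6 (-0.12), in a range of -0.12 to 0.36 when 1 array was left out. That of Mrpl12 turned with the block (0.02) and the same 6 arrays (0.02), and that of Mrpl3 without tumours 1 and 4 (0.10). Without rescaling Mrpl12 (0.39), Mrps12 (0.21), Mrpl3 (0.48), Mrpl45 (0.32), Mrps36 (0.23) and Gabpa (0.33) turned. Fewer arrays or genes, or another scale, are part of these settings; beyond that the cause was not tested. Dim probe sets limit what can be read from low signals.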
